A study of Mus musculus with 33 samples.

Results

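Genes of the hypoxia-inducible factor (HIF) pathway were followed through sorted bone marrow progenitors of old mice. The 9 genes are Hif1a, Epas1 and Arnt (subunits of the HIF transcription factors), Egln1, Egln2, Egln3 and Hif1an (hydroxylases that sense oxygen), Vhl (the substrate receptor of the ubiquitin ligase that removes HIF) and Vegfa (a secreted growth factor and HIF target). They were chosen by symbol, and all 9 were found among the 55376 gene symbols counted in each of 33 total RNA-seq libraries. All 9 also passed the filter on low counts in every fit. All are protein-coding, and their mm10 positions (GENCODE M21) are chr12:73901375-73947530 for Hif1a, chr17:86753700-86833410 for Epas1, chr3:95434388-95497240 for Arnt, chr6:113623959-113631633 for Vhl, chr8:124908587-124949324 for Egln1, chr7:27158658-27166802 for Egln2, chr12:54178981-54203860 for Egln3, chr19:44562850-44576274 for Hif1an and chr17:46016993-46032369 for Vegfa. The mice were C57BL/6 males aged 24 to 29 months. O-WT mice were untreated, O-NR mice had been supplemented with nicotinamide riboside (NR, a precursor of NAD+) for 4 to 6 weeks, and O-NR-RC mice had been taken off NR for 2 months. Cohort 2 held hematopoietic stem cells (HSC), common lymphoid progenitors (CLP) and granulocyte-macrophage progenitors (GMP), each from O-WT and O-NR mice with 4 libraries per group. Cohort 1 held HSCs only, with 2 libraries of O-WT mice, 4 of O-NR mice and 3 of O-NR-RC mice. The gate for HSCs was Lin- cKit+ Sca1+ and, within it, CD150+ without CD34 or Flk2. One label field calls the GMPs common myeloid progenitors, while their titles call them GMPs.

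A HIF dimer pairs an oxygen-labile alpha subunit, the product of Hif1a or Epas1, with the stable subunit Arnt. In the presence of oxygen the Egln enzymes hydroxylate conserved prolines of the alpha subunit, Vhl then binds it, and the protein is degraded. Hif1an hydroxylates an asparagine that the coactivators need. This control acts on the protein, so that RNA levels report how much transcript of each part is present and not how active the pathway is. Egln3, Egln1 and Vegfa are themselves known HIF targets. The bone marrow is a tissue of low oxygen, in which HSCs rely on glycolysis.

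The proline codons that the Egln enzymes act through are given here because of the alpha subunits Hif1a was highest and Epas1 lowest in GMPs. Each stretch is 30 coding bases of the mm10 (GRCm38) genome on the plus strand, 5′ to 3′, with the proline codon in capitals.
Hif1a, codon 402 of 836, exon 9, chr12:73939683-73939712: gatgctctcactctgctggctCCAgctgcc
Hif1a, codon 577 of 836, exon 12, chr12:73941970-73941999: ttagatttggagatgctggctCCCtatatc
Epas1, codon 405 of 874, exon 9, chr17:86824564-86824593: gaggaactggcccagttggccCCCacccca
Epas1, codon 530 of 874, exon 12, chr17:86827507-86827536: ctggatttggagaccttggcaCCCtacatc

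The core of the HIF response element was searched as ACGTG and as GCGTG, on both strands, in the 250 bases before each RefSeq start (GRCm38.p6). Promoters were on hand for 8 of the 9 members, 10 promoters in all, with no entry for Epas1. ACGTG was found upstream of Hif1a, Egln1, Egln2, Egln3 and Vegfa, and GCGTG upstream of Arnt, Egln1, Egln2 and Vegfa. The Hif1a promoter, chr12:73907617-73907916, lay inside the annotated gene, as did the Egln2 promoter at chr7:27165679-27165978. For Vegfa both motifs lay in the promoter at chr17:46025114-46025413, which is also inside the annotated gene. The other Vegfa promoter, chr17:46032328-46032627 at the annotated 5′ end of the gene, held neither. Of 32851 promoters of the same length, 16.6% held ACGTG, 28.2% held GCGTG and 38.6% held either. To show the motif in place, a window is printed for 3 of the members with ACGTG, with the motif in capitals. A match describes the letters and not a bound site, and CACGTG counts on both strands.
Hif1a, first base at -70, plus strand, chr12:73907772-73907826: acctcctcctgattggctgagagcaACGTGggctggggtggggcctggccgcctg
Egln1, first base at -68, minus strand, chr8:124949293-124949347: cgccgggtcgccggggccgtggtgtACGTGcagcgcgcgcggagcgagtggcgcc
Egln3, first base at -229, minus strand, chr12:54204074-54204124: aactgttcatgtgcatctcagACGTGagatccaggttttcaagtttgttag

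Library totals ran from 4792380 to 23816042 counted reads, with 8897256 to 23816042 in cohort 1 and 4792380 to 18213674 in cohort 2. Levels are read counts relative to library size (CPM) with TMM scaling, done within each cohort, so that a level in one cohort is not compared with one in the other. The sorted cells held their markers. The 8 HSC markers summed to 1235-1714 CPM in O-WT HSCs of cohort 2 and to at most 110 in CLPs and 63.3 in GMPs of O-WT mice. The 8 CLP markers summed to 1916-3767 CPM in O-WT CLPs against at most 49.6 in the other O-WT cells of cohort 2, and the 8 GMP markers to 17017-25234 CPM in O-WT GMPs against at most 443. Reads also fell on 1971 olfactory and vomeronasal receptor genes, which blood cells are not known to transcribe. This receptor signal ran from 0.143 to 1.39 CPM per kb of exon in cohort 2 and from 0.741 to 2.54 in cohort 1. It was highest in CLP O-WT replicate 3 within cohort 2 and high in O-NR replicates 1 and 2 and O-NR-RC replicates 2 and 3 of cohort 1. Values that touch a result are given beside it.

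Which HIF transcripts distinguish old stem cells from their lymphoid and myeloid progeny was asked first, in O-WT mice. Epas1 was highest in HSCs, and Egln3, Egln1 and Vegfa were lowest there. Hif1a was highest in GMPs, and Egln2 was lowest in CLPs. With edgeR's quasi-likelihood test at a Benjamini-Hochberg adjusted p below 0.05, 7 of 9 members differed between HSCs and CLPs, 4 of them higher and 3 lower in HSCs. Among all genes 20.2% were higher and 8.52% lower. Between HSCs and GMPs 5 members differed, 1 higher and 4 lower in HSCs, against 23.7% and 19.4% of all genes. Between CLPs and GMPs 6 members differed, 1 higher and 5 lower in CLPs, against 32.7% and 26.3%. The same comparisons in O-NR mice gave 6 members for HSC and CLP (3 higher and 3 lower, against 20.5% and 11.0% of all genes), 6 for HSC and GMP (2 higher and 4 lower, against 20.4% and 16.1%) and 4 for CLP and GMP (1 higher and 3 lower, against 20.1% and 19.2%). Scaling by the upper quartile added Arnt (0.35) and Hif1an (0.52) to the members higher in O-WT HSCs than in GMPs, and Egln1 (0.51) and Hif1an (0.30) to those higher in CLPs than in GMPs. Without a filter on low counts Arnt, Egln3 and Hif1an lost their calls between O-WT HSCs and CLPs. So many genes differ between these cell types that a called member is common, and the sizes below carry more than the counts. The plot of levels by library shows the members side by side.

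**Figure D1:**
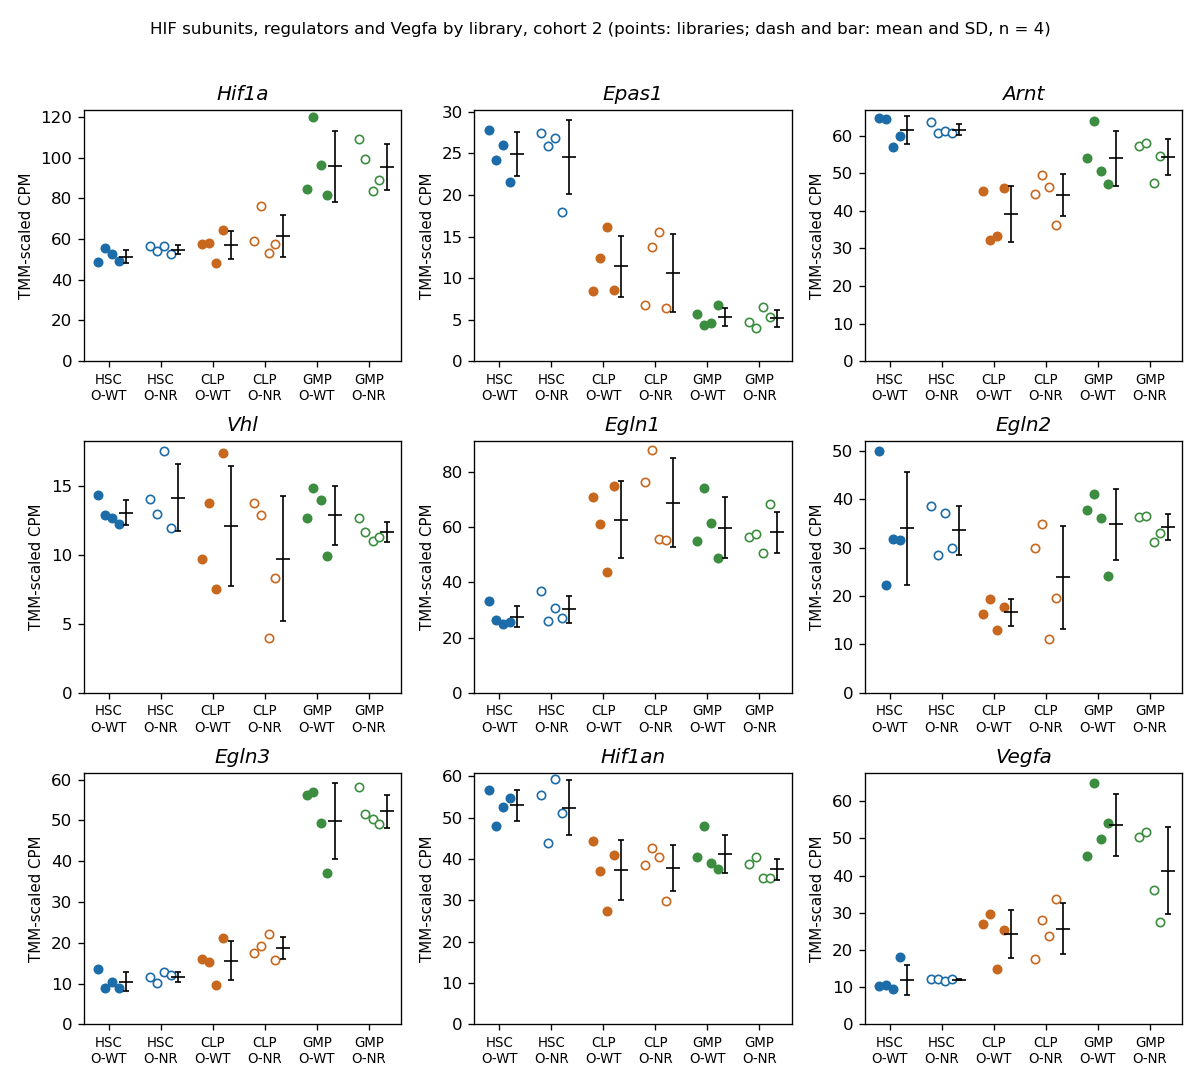
Level of each member (TMM-scaled CPM, linear axes from 0) in the 24 libraries of cohort 2. Filled points are O-WT and open points O-NR libraries, and the dash and bar give the mean and SD of 4 libraries. Epas1 steps down from HSC to CLP to GMP, while Egln3 and Vegfa step up.

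Epas1 encodes the alpha subunit known as HIF2A, which is prominent in endothelium and in the control of erythropoietin. Its level in the 4 O-WT HSC libraries was 27.8, 24.2, 26.0 and 21.6 CPM. O-WT CLPs held 8.50, 12.4, 16.2 and 8.63 CPM, and O-WT GMPs 5.72, 4.37, 4.58 and 6.71 CPM. The 3 groups did not overlap, and their means were 24.9 ± 2.64 CPM (SD, n = 4), 11.4 ± 3.66 CPM and 5.34 ± 1.08 CPM. Epas1 was 2.19-fold higher in HSCs than in CLPs (log2 fold change 1.13, SE 0.24, adjusted p = 0.000213) and 4.65-fold higher than in GMPs (2.22, SE 0.25, adjusted p = 6.15e-10). CLPs exceeded GMPs 2.12-fold (log2 fold change 1.09, SE 0.25, adjusted p = 0.000509).

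The O-NR libraries gave the same order for Epas1. HSCs held 27.5, 25.9, 26.9 and 17.9 CPM, CLPs 6.82, 13.8, 15.5 and 6.39 CPM, and GMPs 4.74, 4.02, 6.50 and 5.34 CPM. HSCs stood above both other cell types without overlap, while 1 O-NR CLP library (6.39 CPM) fell below the highest GMP library (6.50 CPM). The folds were 2.32 for HSC over CLP (adjusted p = 7.61e-05) and 4.76 for HSC over GMP (adjusted p = 5.01e-10).

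Low levels of Epas1 lie near the receptor signal. Scaled to the exon length of Epas1 (5.59 kb), that signal came to 5.55-16.0% of the Epas1 level in O-WT HSCs, 25.7-32.0% in O-WT CLPs and 26.5-32.7% in O-WT GMPs. With it subtracted, O-WT HSCs stood at 22.3 ± 3.03 CPM (SD, n = 4), O-WT CLPs at 8.05 ± 2.52 and O-WT GMPs at 3.74 ± 0.708, and the 3 groups still did not overlap (19.5-26.2, 5.82-11.0 and 3.08-4.55 CPM). With the receptor signal as a covariate, a fit chosen after seeing the data, the HSC differences held (1.27 and 2.07 on the log2 scale), while CLP over GMP in O-WT came to 0.80 with an adjusted p of 0.0632. In bulk samples fewer cells that express a gene and less RNA per cell cannot be told apart. Endothelial markers, taken as a sum, were highest in HSCs as Epas1 was, but did not step down from CLPs to GMPs. The 5 listed, of which 4 were above 3 CPM in O-WT HSCs, 3 in CLPs and 2 in GMPs, summed to 174-251 CPM for HSCs, 19.9-36.6 for CLPs and 25.2-31.5 for GMPs. Tie1, a receptor also known in HSCs, made up most of this sum, at 129-171 CPM in O-WT HSCs. Cdh5, the cadherin of endothelial junctions, was at 4.82-11.5 CPM in O-WT HSCs and at 5.89-18.0 in CLPs, and Plvap at 1.54-2.59 and 2.16-3.69 CPM. Cldn5, a tight junction protein, was at 14.7-45.7 CPM in O-WT HSCs and at 0 to 0.978 in CLPs, and Emcn, a surface mucin of endothelium, was at 14.4-26.2 and 2.91-5.47 CPM. The part of endothelial RNA in the Epas1 level was not tested.

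**Figure D2:**
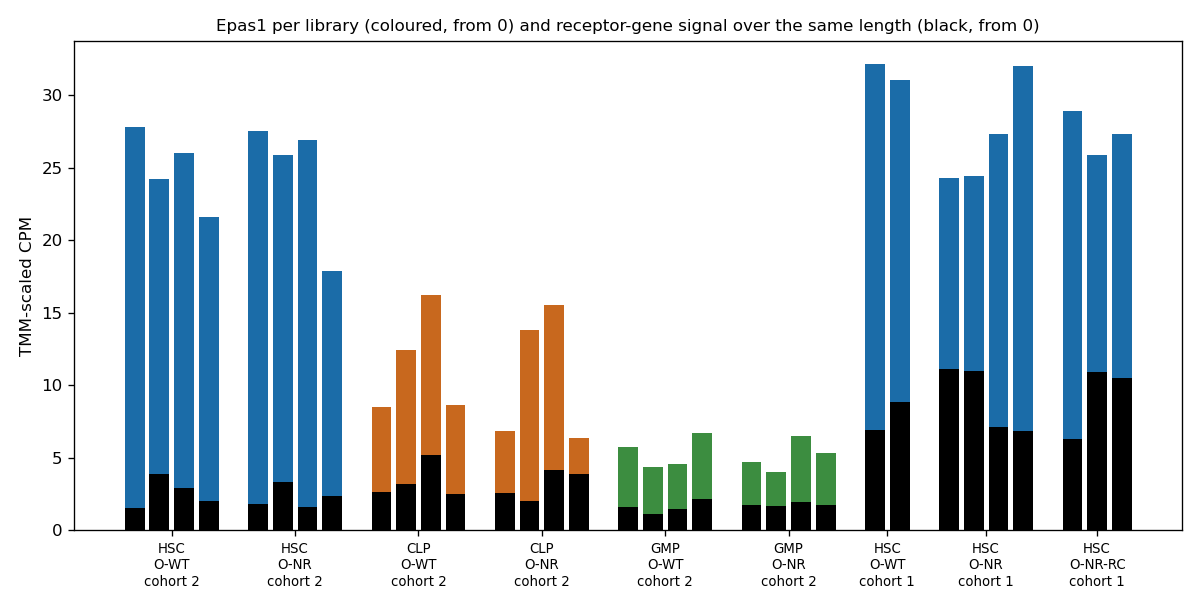
Epas1 level in every library (coloured bars, TMM-scaled CPM from 0) with the receptor-gene signal over the same exon length drawn in front of it (black bars, from 0). In cohort 2 the black part is small against the Epas1 level of HSCs and takes up to 32.7% of it in O-WT GMPs, 42.4% in O-NR GMPs and 60.7% in O-NR CLPs, and in cohort 1 it reaches 45.6%.

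Hif1a encodes the broadly expressed alpha subunit that drives glycolytic genes under low oxygen. O-WT HSCs held 48.5, 55.5, 52.7 and 49.0 CPM, CLPs 57.6, 58.0, 48.2 and 64.4 CPM, and GMPs 84.6, 120, 96.6 and 81.6 CPM. GMPs lay above all HSC and CLP libraries, which overlapped each other. Means were 51.4 ± 3.29, 57.1 ± 6.69 and 95.7 ± 17.4 CPM (SD, n = 4). Hif1a was 1.86-fold lower in HSCs than in GMPs (log2 fold change -0.90, SE 0.15, adjusted p = 4.5e-06) and 1.67-fold lower in CLPs than in GMPs (-0.74, SE 0.15, adjusted p = 0.000112). HSCs and CLPs differed by -0.15 (95% interval -0.46 to 0.16, adjusted p = 0.501). This last difference was -0.43 with an adjusted p of 0.00118 under upper quartile scaling. The GMP level was also higher in O-NR mice, 1.74-fold over HSCs and 1.55-fold over CLPs (adjusted p = 3.22e-05 and 0.00114). Exons of Hif1a share 330 bases, 5.6% of their length, with the antisense gene Gm15283, and the strand setting of the count is not given in the sources used here, so reads there cannot be assigned.

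The ratio of Epas1 to Hif1a reads within a library does not depend on scaling between libraries. Per 100 Hif1a reads there were 48.3 Epas1 reads in O-WT HSCs (43.6-57.3 over 4 libraries), 19.5 in CLPs (13.4-33.7) and 5.61 in GMPs (3.67-8.27), as geometric means. No O-WT groups overlapped. The receptor signal was not removed from these reads. Within O-WT CLPs the ratio rose with it, from 13.4 at 0.4497 CPM per kb to 33.7 at 1.385. Within O-WT GMPs it rose from 3.67 at 0.143 CPM per kb to 8.27 at 0.396. O-WT HSCs did not show this, with the highest ratio (57.3) at the lowest signal (0.2503). The part of the receptor signal in the ratio was not tested. The log2 ratio differed by 1.31 between HSCs and CLPs, 3.11 between HSCs and GMPs and 1.80 between CLPs and GMPs. A two-sided exact permutation test gave p = 0.0286 for each, the smallest that the 70 regroupings of 4 against 4 allow, and 0.0571 after adjustment over 6 tests, which misses 0.05. Between O-NR and O-WT libraries of the same cell type the log2 ratio differed by -0.13 for HSCs, -0.27 for CLPs and -0.06 for GMPs, with exact permutation p of 0.514, 0.6 and 0.857 (adjusted 0.72, 0.72 and 0.857).

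**Figure D3:**
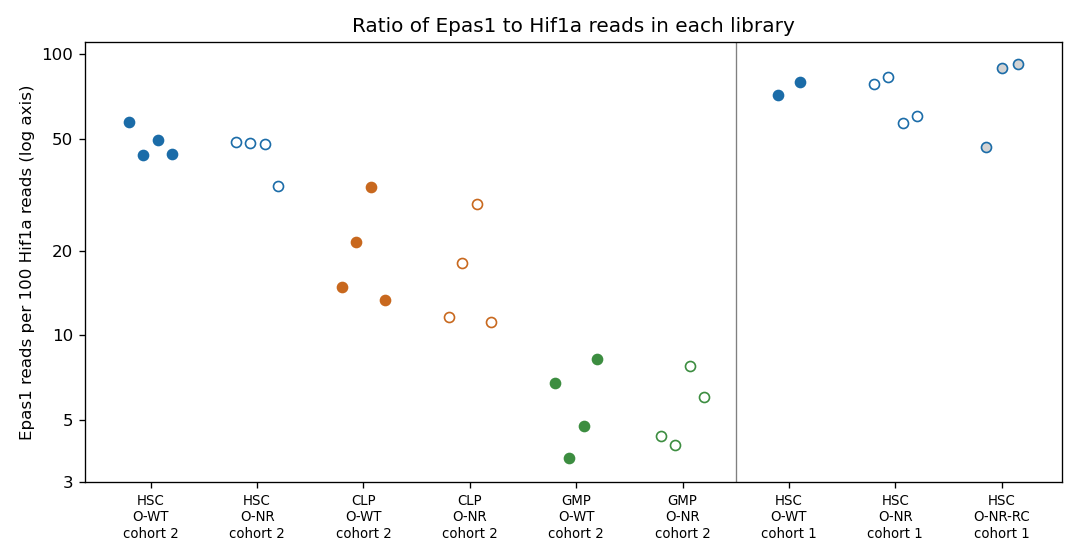
Epas1 reads per 100 Hif1a reads in each library (log axis). Filled points are O-WT libraries, open points O-NR and grey-filled points O-NR-RC, with cohort 2 to the left of the line and cohort 1 to the right. Each cell type of cohort 2 holds its own range in O-WT mice, from 43.6-57.3 in HSCs to 3.67-8.27 in GMPs. The receptor signal was not removed from the reads.

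Arnt encodes the subunit shared by both dimers. It stood at 57.0-64.6 CPM in O-WT HSCs, 32.2-46.1 in CLPs and 47.0-63.9 in GMPs. CLPs were below both other cell types in O-WT without overlap, 1.56-fold below HSCs (log2 fold change 0.65, SE 0.15, adjusted p = 0.000684) and 1.37-fold below GMPs (-0.46, SE 0.15, adjusted p = 0.0106). In O-NR mice Arnt was again higher in HSCs than in CLPs (0.48, adjusted p = 0.0111), and CLPs and GMPs differed by -0.30 (adjusted p = 0.105). HSCs and GMPs differed by 0.19 in O-WT (95% interval -0.11 to 0.49). The gap between CLPs and GMPs depended on scaling, at -0.02 with an adjusted p of 0.86 under upper quartile scaling. It also lost its call without CLP replicate 2 (adjusted p = 0.0518) or GMP replicate 2 (adjusted p = 0.0521) and with the receptor covariate (-0.19, adjusted p = 0.432). The excess of O-NR HSCs over CLPs was lost with DESeq2 (adjusted p = 0.0741) and without CLP replicate 4 (adjusted p = 0.0586).

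Among the oxygen sensors, Egln3, an inducible prolyl hydroxylase, separated GMPs most clearly. O-WT HSCs held 13.7, 9.04, 10.5 and 8.81 CPM of Egln3, CLPs 16.1, 15.4, 9.78 and 21.3 CPM, and GMPs 56.2, 57.0, 49.3 and 37.0 CPM. Every GMP library was above every HSC and CLP library, which overlapped. Egln3 was 4.75-fold lower in HSCs than in GMPs (log2 fold change -2.25, SE 0.19, adjusted p = 2.46e-13) and 3.16-fold lower in CLPs than in GMPs (-1.66, SE 0.19, adjusted p = 1.26e-09). HSCs were also lower than CLPs, by 1.50-fold (-0.59, SE 0.19, adjusted p = 0.0163), a call lost without HSC replicate 4 (adjusted p = 0.0716) or CLP replicate 4 (adjusted p = 0.135). In O-NR mice the log2 differences were -2.16 for HSC and GMP, -1.49 for CLP and GMP and -0.68 for HSC and CLP, and the HSC and CLP libraries (10.1-12.8 and 15.8-22.1 CPM) did not overlap.

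Egln1, the main prolyl hydroxylase of the alpha subunits in most tissues, set HSCs apart from both progenitors. It was at 33.3, 26.5, 24.9 and 25.7 CPM in O-WT HSCs, 70.9, 61.1, 43.7 and 75.1 CPM in CLPs, and 55.1, 74.4, 61.4 and 48.8 CPM in GMPs. HSCs lay below all other libraries, and CLPs and GMPs overlapped. The level in HSCs was 2.28-fold lower than in CLPs (log2 fold change -1.19, SE 0.18, adjusted p = 7.66e-07) and 2.17-fold lower than in GMPs (-1.12, SE 0.18, adjusted p = 1.44e-06), and O-NR mice gave -1.19 and -0.94. CLPs and GMPs differed by 0.07 in O-WT (95% interval -0.28 to 0.42) and by 0.25 in O-NR (-0.11 to 0.60), values that came to 0.51 and 0.52 with adjusted p of 0.00119 and 0.00127 under upper quartile scaling.

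Egln2, the remaining prolyl hydroxylase, was low in CLPs. O-WT CLPs held 16.3, 19.5, 12.9 and 17.8 CPM, below all O-WT HSC libraries (50.1, 22.4, 31.8 and 31.7 CPM) and GMP libraries (37.8, 41.2, 36.1 and 24.2 CPM). HSCs exceeded CLPs 2.04-fold (log2 fold change 1.03, SE 0.23, adjusted p = 0.000429), and GMPs exceeded CLPs 2.09-fold (-1.06, SE 0.23, adjusted p = 0.000228). O-NR CLPs spread more widely, at 30.0, 34.9, 11.1 and 19.6 CPM, and overlapped both other cell types. There the differences were 0.48 for HSC and CLP (adjusted p = 0.103) and -0.51 for CLP and GMP (adjusted p = 0.0666), the latter with an adjusted p of 0.0416 when the replicate number entered as a block. Without CLP replicate 2 both were called (0.72 and -0.75, adjusted p = 0.0149 and 0.00964), and without CLP replicate 1 the latter was (-0.63, adjusted p = 0.0405). With the receptor signal as a covariate the O-WT gap of CLPs and GMPs was -0.19 (adjusted p = 0.622).

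Hif1an, the asparaginyl hydroxylase, and Vhl had the smallest differences between O-WT cell types. Hif1an was at 48.0-56.7 CPM in O-WT HSCs, 27.5-44.3 in CLPs and 37.7-47.9 in GMPs. Its excess in HSCs over CLPs was 1.41-fold (log2 fold change 0.50, SE 0.15, adjusted p = 0.0116). This call was lost with DESeq2 (0.45, adjusted p = 0.099), under upper quartile scaling (0.22, adjusted p = 0.103) and without CLP replicate 3 (0.32, adjusted p = 0.119). HSC over GMP came to 0.36 in O-WT (adjusted p = 0.0532) and 0.48 in O-NR (adjusted p = 0.0104). The O-WT value was called without GMP replicate 2 (0.44, adjusted p = 0.0288), and the O-NR call was lost without HSC replicate 1 (adjusted p = 0.145) or 3 (adjusted p = 0.199) and with DESeq2 (adjusted p = 0.348). Between O-NR HSCs and CLPs Hif1an differed by 0.47 (adjusted p = 0.0161), a call lost without HSC replicate 1 or 3 or CLP replicate 4 (adjusted p = 0.07, 0.102 and 0.086) and with DESeq2 (0.11). Vhl was at 12.3-14.4 CPM in O-WT HSCs, 7.54-17.4 in CLPs and 9.94-14.9 in GMPs, and no comparison of cell types called it. Its 95% intervals, -0.41 to 0.60 for HSC and CLP and -0.48 to 0.52 for HSC and GMP in O-WT, allow differences of up to 0.60 on the log2 scale. In O-NR mice HSCs and CLPs differed by 0.53 (0.02 to 1.04, adjusted p = 0.109), which was called without CLP replicate 1 (0.74, adjusted p = 0.0345) or CLP replicate 2 (0.69, adjusted p = 0.0456). Vhl was thinly counted, with 31 to 221 reads per library in cohort 2. The receptor signal came to 7.74-36.8% of its level in O-WT CLPs and 8.46-56.2% in O-NR CLPs.

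Vegfa, the HIF target that drives vessel growth and that HSCs are known to need, rose from HSCs to GMPs. O-WT HSCs held 10.2, 10.5, 9.41 and 18.0 CPM, CLPs 27.0, 29.6, 14.9 and 25.4 CPM, and GMPs 45.3, 64.8, 49.8 and 54.2 CPM. HSCs and GMPs did not overlap, and HSC replicate 4 overlapped the lowest CLP library. Vegfa was 2.00-fold lower in HSCs than in CLPs (adjusted p = 0.0003), 4.41-fold lower than in GMPs (log2 fold change -2.14, SE 0.22, adjusted p = 4.73e-11) and 2.20-fold lower in CLPs than in GMPs (-1.14, SE 0.21, adjusted p = 2.56e-05). In O-NR mice the same differences were -1.09, -1.78 and -0.68, each called. The last of them was lost under upper quartile scaling (-0.38, adjusted p = 0.117) and with the receptor signal as a covariate (-0.48, adjusted p = 0.147), and without CLP O-NR replicate 1 or GMP O-NR replicate 2 (adjusted p = 0.0516 and 0.0547).

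**Figure D4:**
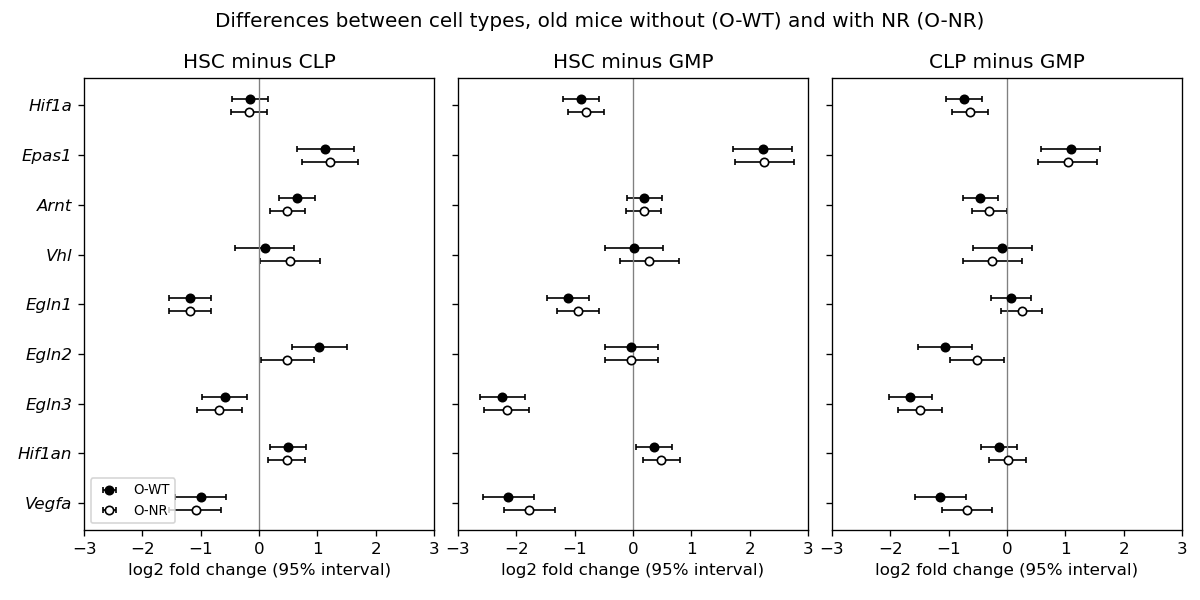
Log2 fold changes of the 9 members between cell types with 95% intervals, from one fit over the 24 libraries of cohort 2. Filled points are O-WT and open points O-NR mice. Epas1 lies to the right of 0 in all 3 panels, Egln3 and Vegfa lie to the left in all 3, and the O-WT and O-NR intervals overlap for every member.

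Per kb of exon, where levels of different genes can be set side by side, the order within a cell type changed. In O-WT HSCs the means were 12.1 CPM per kb for Egln2, 8.72 for Hif1a, 8.02 for Hif1an, 7.68 for Arnt, 7.68 for Egln1, 4.45 for Epas1, 4.36 for Vhl, 3.95 for Egln3 and 2.81 for Vegfa. In O-WT GMPs they were 18.7 for Egln3, 16.7 for Egln1, 16.2 for Hif1a, 12.5 for Vegfa, 12.4 for Egln2, 6.73 for Arnt, 6.25 for Hif1an, 4.30 for Vhl and 0.956 for Epas1. The SDs of Hif1an, Arnt and Egln1 in HSCs (0.571, 0.463 and 1.08) span their differences, as do those of Epas1, Vhl and Egln3 (0.472, 0.300 and 0.841). Egln2 varied most there (SD 4.14), and its libraries overlapped those of Hif1a (SD 0.558). In GMPs those of Egln3, Egln1 and Hif1a (3.48, 3.04 and 2.96) did, and Vegfa and Egln2 (1.95 and 2.64) were likewise not apart. Egln3 and Vegfa were thus at the bottom of the list in HSCs and among its upper members in GMPs. The median receptor signal of O-WT GMPs was 0.226 CPM per kb before TMM scaling, while the 0.956 of Epas1 there is TMM-scaled. With both on the TMM scale, the receptor signal came to 26.5-32.7% of the Epas1 level in O-WT GMPs.

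Across the 24 libraries of cohort 2, Hif1a and Egln3 had a Pearson r of 0.93 and Vegfa and Egln3 one of 0.87, while Epas1 had -0.91 with Vegfa and -0.88 with Egln3. These are descriptions over libraries that fall into 3 cell types, which share most of the pattern. By the same measure on log2 CPM, the genes most like Epas1 among 22573 were Ptk2 (r = 0.964), Pld2 (0.964) and Igsf9b (0.959). Those most like Hif1a were Utp20 (0.971), Ints2 (0.971) and Xpo5 (0.970), and those most like Egln3 were B4galnt1 (0.986), Tiam1 (0.982) and Actr3 (0.979). Vegfa was followed by Rgcc (0.950), Syce2 (0.949) and Gga2 (0.949), and Egln1 by Selplg (0.974), Gmfg (0.972) and H2afy (0.972). For Arnt the list was Ralgapa1 (0.962), Rnf14 (0.954) and Erbin (0.947), for Hif1an Fnbp1 (0.960), Jak1 (0.951) and Ddx17 (0.951), and for Egln2 Akap1 (0.930), Rps28 (0.925) and Rps7 (0.924). Vhl had the weakest matches, Zfp426 (0.901), Lyrm2 (0.836) and Tpt1-ps3 (0.836).

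The rest of the pathway was read from 74 listed genes, of which Adm, Epo, Cited4 and Vegfd did not pass the filter in the fit over the 24 libraries of cohort 2. Of the other subunits, Hif3a, another alpha subunit whose short forms are known to restrain the others, followed Epas1. It was at 22 ± 7.77 CPM in O-WT HSCs, 11.0 ± 2.94 CPM in O-WT CLPs and 4.70 ± 1.42 CPM in O-WT GMPs, with log2 fold changes of 1.01 for HSC over CLP (adjusted p = 0.00169), 2.22 for HSC over GMP (adjusted p = 2.62e-09) and 1.22 for CLP over GMP (adjusted p = 0.000272). The first lost its call under upper quartile scaling (adjusted p = 0.0812) and the last with the receptor covariate (adjusted p = 0.0543). Arnt2, the paralog of Arnt, was called higher in HSCs than in GMPs (0.77, adjusted p = 0.0199) and in CLPs than in GMPs (1.11, adjusted p = 0.00087), and with the receptor covariate these values were 0.13 and 0.10 (adjusted p = 0.726 and 0.864). The first was also lost with DESeq2 (adjusted p = 0.157), without HSC replicate 2 or 3 (adjusted p = 0.212 and 0.199) and without GMP replicate 1 or 2 (adjusted p = 0.0582 and 0.08).

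Of 17 HIF regulators tested, 5 were higher and 0 lower in O-WT HSCs than in CLPs (6 at an unadjusted p below 0.05), with a median log2 fold change of 0.29 against -0.06 over all genes, of which 20.2% were higher and 8.52% lower. Cited2, which competes with HIF for its coactivators, was at 220 ± 72.3 CPM in HSCs and 30.7 ± 9.14 in CLPs (2.83, adjusted p = 4.38e-14). Usp33, a deubiquitinase (0.84), and Os9, a lectin of protein quality control (0.72), were also called. Against GMPs, 3 regulators were higher and 8 lower in HSCs (median -0.37 against 0.42 over all genes, of which 23.7% were higher and 19.4% lower). P4htm, a membrane-bound prolyl hydroxylase, was higher (1.74, adjusted p = 1.05e-07), whereas Os9 (-1.16), Hsp90aa1, a chaperone that stabilises alpha subunits (-1.26), and Cul2, the scaffold of the Vhl ligase (-0.72), were lower. Cited2 (0.80) and Crebbp, a coactivator (0.51), were called higher in HSCs than in GMPs with TMM but not with DESeq2 (0.56 and 0.24, adjusted p = 0.102 and 0.454), and the Crebbp call was also lost without HSC replicate 1 or 3 or GMP replicate 4. Between CLPs and GMPs 1 regulator was higher and 11 lower in CLPs (median -0.74 against 0.46, with 32.7% and 26.3% of all genes called), with P4htm at 1.02, Cited2 at -2.03, Os9 at -1.87 and Hsp90ab1 at -1.36. In O-NR mice 4 regulators were higher and 0 lower for HSC and CLP (20.5% and 11.0% of all genes). For HSC and GMP 2 were higher (P4htm, 1.63, and Crebbp, 0.60, without Cited2) and 5 lower (20.4% and 16.1% of all genes). For CLP and GMP 0 were higher and 8 lower (20.1% and 19.2%).

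HIF targets did not move as a block. Of 43 tested, 18 were higher and 3 lower in O-WT HSCs than in CLPs, at a median of 0.35 against -0.06 over all genes (20.2% higher and 8.52% lower). Against GMPs 9 were higher and 20 lower in HSCs (median -0.08 against 0.42, with 23.7% and 19.4% of all genes), and between CLPs and GMPs 7 were higher and 21 lower in CLPs (median -0.26 against 0.46, with 32.7% and 26.3%). The targets with the smallest p that were higher in HSCs were Slc2a3, a glucose transporter, at 146 ± 27.9 CPM against 26.9 ± 4.71 in CLPs and 19.6 ± 2.74 in GMPs (log2 fold changes 2.43 and 2.89), Vldlr, a lipoprotein receptor (4.07 and 4.84), and Ndrg1, a stress-response gene (1.93 and 2.23). Tfrc, the transferrin receptor, was lower in HSCs than in CLPs (-3.12) and GMPs (-2.58). Cxcr4, the receptor for the niche chemokine Cxcl12, was lower in HSCs than in CLPs (-2.06). Car12, a carbonic anhydrase, was called lower as well (-0.61, adjusted p = 0.0445), a call lost without either of HSC replicates 1 and 4 or CLP replicates 1 and 2. The glycolytic enzyme Pgam1 was lower in HSCs (-2.67) and in CLPs (-2.64) than in GMPs, as was Ero1l, an oxidase of the endoplasmic reticulum (-1.92 and -2.26), and Aldoa, an aldolase, was lower in CLPs than in GMPs (-2.76). Plod2, a collagen-modifying hydroxylase (1.25), Ddit4, an inhibitor of mTOR signalling (1.83), and Aldoc (1.08) were higher in CLPs than in GMPs, at levels of 8.16, 4.66 and 4.72 CPM.

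Among 8 VEGF ligands and receptors tested, Kdr, the main receptor for Vegfa, was opposite to its ligand. It was at 35.4 ± 2.70 CPM in O-WT HSCs, 18.0 ± 6.92 CPM in O-WT CLPs and 8.05 ± 2.63 CPM in O-WT GMPs (log2 fold changes 0.98 for HSC over CLP, 2.14 for HSC over GMP and 1.15 for CLP over GMP, adjusted p = 0.000449, 1.97e-10 and 8.23e-05). The first was 0.67 with an adjusted p of 0.0547 under upper quartile scaling. The summed endothelial markers given with Epas1 (174-251 CPM in O-WT HSCs, 19.9-36.6 in CLPs and 25.2-31.5 in GMPs) were likewise highest in HSCs. Tie1 made up most of the HSC sum. Cldn5 and Emcn were also higher in O-WT HSCs (14.7-45.7 and 14.4-26.2 CPM) than in CLPs (0 to 0.978 and 2.91-5.47 CPM). Cdh5 and Plvap were not higher in HSCs than in CLPs. The part of endothelial RNA in the Kdr level was not tested. Nrp1, a coreceptor, went the other way, at 8.86 ± 3.23, 15.4 ± 1.42 and 25.9 ± 6.08 CPM (-0.80, -1.55 and -0.75, adjusted p = 0.0238, 7.8e-06 and 0.0168). The Nrp1 difference of HSCs and CLPs was lost without HSC replicate 1 (-0.67, adjusted p = 0.0978) or HSC replicate 4 (adjusted p = 0.0509), and that of CLPs and GMPs without GMP replicate 3 (adjusted p = 0.0567) and under upper quartile scaling (-0.29, adjusted p = 0.399). Vegfc, a lymphatic ligand, was low, at 8.59 ± 1.04 CPM in HSCs, 4.06 ± 0.578 CPM in CLPs and 1.61 ± 0.147 CPM in GMPs, and it was called in each comparison (log2 fold changes 1.08, 2.41 and 1.32), the first not under upper quartile scaling (adjusted p = 0.0549). Flt4, the receptor for Vegfc, was higher in HSCs (0.87) and CLPs (1.21) than in GMPs, with 0.44 and 0.50 and adjusted p of 0.0556 and 0.102 once the receptor signal entered as a covariate. Vegfb and Flt1 were lower in HSCs than in GMPs (-0.71 and -0.57), and Vegfb was lower in CLPs than in GMPs (-0.60). Flt1 lost its call without either of HSC replicates 1 and 4 or GMP replicates 1 and 2, and the CLP difference of Vegfb was lost without GMP replicate 2 (adjusted p = 0.0545), under upper quartile scaling (-0.16, adjusted p = 0.301) and with the receptor covariate (-0.11). In all, 2 of the 8 were higher and 1 lower in O-WT HSCs than in CLPs (20.2% and 8.52% of all genes), 3 and 3 against GMPs (23.7% and 19.4%), and 4 and 2 for CLPs against GMPs (32.7% and 26.3%). In O-NR mice the counts were 2 and 2 (20.5% and 11.0% of all genes), 3 and 3 (20.4% and 16.1%), and 3 and 0 (20.1% and 19.2%). The last were Flt4 (0.63), Kdr (0.64) and Vegfc (0.84), so that neither Nrp1 nor Vegfb was called there between CLPs and GMPs.

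Whether NR changed these transcripts was asked within each cell type of cohort 2. By edgeR's quasi-likelihood test at an unadjusted p below 0.01, 0 of 9 members differed between O-NR and O-WT in HSCs, CLPs or GMPs, and 0 had a p below 0.05. DESeq2 gave 0 in each as well. Among all genes 0.726% passed 0.01 in HSCs, 0.412% in CLPs and 0.986% in GMPs by edgeR. An unadjusted p below 0.05 was held by 667 of 17364, 639 of 19909 and 648 of 13486 genes. No gene in any of the 3 had an adjusted p below 0.05. In HSCs the log2 fold changes of the members ran from -0.06 to 0.11. Hif1a stood at 56.6, 53.9, 56.4 and 52.5 CPM in O-NR HSCs beside 48.5-55.5 in O-WT (0.05, 95% interval -0.16 to 0.26), and Epas1 differed by -0.06 (-0.36 to 0.24). The widest interval in HSCs was that of Vegfa (-0.50 to 0.41).

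In CLPs the member with the smallest p was Egln2, at 0.49 on the log2 scale (SE 0.25, 95% interval -0.01 to 0.99, unadjusted p = 0.0563, adjusted p = 1). Of the 4 O-NR libraries, 3 were above all O-WT libraries (19.6, 30.0 and 34.9 against at most 19.5 CPM) and replicate 3 was below them at 11.1 CPM. That library also held the lowest Vhl level, 3.96 CPM. It had the highest receptor signal (0.826 CPM per kb) and the lowest read total (7034189) of the O-NR CLPs. CLP O-WT replicate 3, with the highest signal of cohort 2 (1.385), likewise held the lowest O-WT Egln2 level (12.9 CPM). The part of receptor signal and depth in these levels was not tested. Without O-NR replicate 3 the Egln2 difference was 0.72 (unadjusted p = 0.00215). In GMPs the smallest p was that of Vegfa, at 50.3, 51.7, 36.1 and 27.4 CPM in O-NR against 45.3, 64.8, 49.8 and 54.2 in O-WT (-0.33, SE 0.15, 95% interval -0.66 to 0.00, unadjusted p = 0.0523, adjusted p = 0.997). The groups overlapped. The NR difference itself was compared between cell types with an interaction term. Again 0 of 9 members passed 0.01 or 0.05, with DESeq2 also at 0. Of all genes 0.421% passed 0.01 for HSC and CLP, 0.133% for HSC and GMP and 0.439% for CLP and GMP. At 0.05 the numbers were 537, 321 and 803 of 22573 genes. The smallest p was that of Egln2, whose NR difference was 0.55 larger in CLPs than in GMPs (95% interval -0.10 to 1.20, unadjusted p = 0.0948) and -0.55 between HSCs and CLPs (-1.20 to 0.10, unadjusted p = 0.097).

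**Figure D5:**
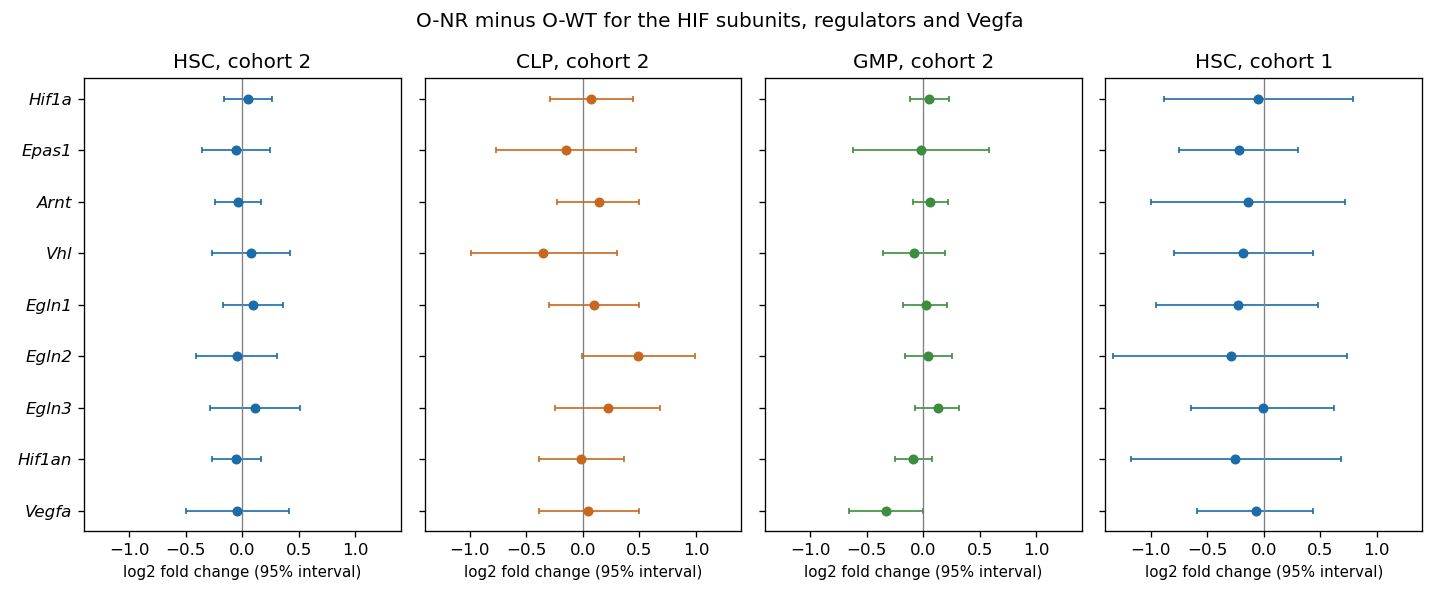
Log2 fold changes of the 9 members between O-NR and O-WT with 95% intervals, in HSCs, CLPs and GMPs of cohort 2 and in HSCs of cohort 1. The members of HSCs in cohort 2 lie between -0.06 and 0.11, and the widest interval shown is that of Egln2 in cohort 1, which has 2 O-WT libraries.

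The NR comparisons of cohort 2 tested 41 HIF targets in HSCs, 40 in CLPs and 36 in GMPs, and 2, 1 and 2 of them passed an unadjusted p of 0.01, against 0.726%, 0.412% and 0.986% of all genes. No other listed gene did. At an unadjusted p below 0.05 by the same edgeR test, 9, 2 and 4 targets passed. Among all genes 667 of 17364, 639 of 19909 and 648 of 13486 did. Cxcr4 in HSCs was at 17.7 ± 3.77 CPM with NR and 28.6 ± 3.84 CPM without (log2 fold change -0.74, SE 0.15, unadjusted p = 0.000175, adjusted p = 0.38) and at 90.1 ± 9.05 and 114 ± 15.3 CPM in GMPs (-0.28, SE 0.08, unadjusted p = 0.00254, adjusted p = 0.905). Pdk1, the kinase that holds pyruvate out of the citric acid cycle, was at 71.2 ± 4.79 and 53.5 ± 6.75 CPM in HSCs (0.37, unadjusted p = 0.00207) and at 91.1 ± 6.44 and 75.6 ± 12.6 CPM in GMPs (0.33, unadjusted p = 0.00065). Ddit4 was at 1.92 ± 0.414 and 4.66 ± 1.37 CPM in CLPs (-1.31, unadjusted p = 0.00984), and it did not pass the filter in GMPs. Its O-NR mean in CLPs lay below the 3 CPM of the filter. Ddit4 thus entered the CLP test through the O-WT libraries, where it was higher, and both levels were low. None of these held after adjustment over all genes. In the HSCs of cohort 1, 0 of 45 HIF targets passed 0.01 or 0.05 between O-NR and O-WT by edgeR. In the fit of both cohorts 0 of 44 passed 0.01 and 2 had an unadjusted p below 0.05. Thus neither Cxcr4 nor Pdk1 was called in these fits. Of all genes 0.0480% and 0.103% passed 0.01 there, and 182 of 33350 and 216 of 23413 passed 0.05. In the edgeR test of a difference in the NR effect between cohorts, 0 of 44 targets passed 0.01 and 6 passed 0.05. Of all genes 0.137% passed 0.01 in that test, and 436 of 23413 passed 0.05. By edgeR, Pdk1 in HSCs missed 0.01 without O-WT or O-NR replicate 3 (unadjusted p = 0.0106 and 0.0111), Cxcr4 in GMPs did so without O-NR replicate 1 (unadjusted p = 0.0105), and Ddit4 did so without any of O-WT replicates 1, 2 and 3 or O-NR replicates 1, 2 and 4. With all 24 libraries in 1 fit, Pdk1 missed it in HSCs and GMPs and Cxcr4 in GMPs (unadjusted p = 0.0158, 0.103 and 0.0668).

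In cohort 1 the same HSC comparison and the withdrawal of NR were examined. Again 0 of 9 members passed an unadjusted p of 0.01 or 0.05 in O-NR against O-WT, O-NR-RC against O-NR or O-NR-RC against O-WT, with DESeq2 also at 0. Among all 33350 genes tested 0.0480%, 0.0360% and 0.0780% passed 0.01, and 182, 97 and 265 genes had an unadjusted p below 0.05 by edgeR. Epas1 was at 32.1 and 31.0 CPM in the O-WT libraries, 24.3, 24.4, 27.3 and 32.0 CPM in the O-NR libraries and 28.9, 25.9 and 27.3 CPM in the O-NR-RC libraries. The O-NR-RC libraries lay below the 2 O-WT libraries without overlap, with a log2 fold change of -0.21 (95% interval -0.76 to 0.35, unadjusted p = 0.44). Hif1a was at 44.7 and 38.8 CPM without NR, 31.1, 29.5, 48.0 and 53.4 CPM with NR and 61.9, 29.1 and 29.7 CPM after its withdrawal. Within both NR groups the libraries with high receptor signal held the low values, O-NR replicates 1 and 2 and O-NR-RC replicates 2 and 3. Egln2 and Hif1an split the same way, at 20.7-23.9 against 39.8-48.7 CPM for Egln2 and 35.1-36.4 against 66.2-70.0 CPM for Hif1an in O-NR. The receptor signal came to up to 39.7% of the Hif1a level and 45.6% of the Epas1 level in this cohort, and its part in the spread was not tested. The intervals were wide in turn, with a half-width of up to 1.10 on the log2 scale. They count each library as a replicate, although some libraries within O-NR and within O-NR-RC were closely alike. Whether those libraries are independent was not tested.

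The HSC libraries of both cohorts were also put in one fit with a cohort term (6 O-WT and 8 O-NR libraries). Log2 fold changes between O-NR and O-WT ran from -0.12 for Egln2 to 0.10 for Egln3. By edgeR or DESeq2, 0 of 9 members passed 0.01 or 0.05. Of all genes 0.103% passed 0.01, and 216 of 23413 passed 0.05 by edgeR. The 95% intervals were -0.19 to 0.29 for Hif1a and -0.32 to 0.15 for Epas1. The NR difference did not pass the test of a difference between cohorts for any member (smallest unadjusted p = 0.216, Egln1), against 0.137% of all genes, and its largest value was 0.31 for Egln1 (95% interval -0.20 to 0.83).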

How the data were processed

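Total RNA from sorted cells was made into libraries with the SMARTer stranded total RNA kit v2 for low input. The authors trimmed reads with trim galore and cutadapt, mapped them to mm10 (GENCODE M22) using STAR and counted reads per gene with featureCounts. The strand setting and the treatment of reads that map more than once are not given in the sources used here. The deposited values are raw counts for 55376 symbols in each of 33 libraries, with totals of 4792380 to 23816042. The counts of no pair of libraries within a group agreed within sampling noise (chi-square per degree of freedom at least 1.96). The NR groups of cohort 1 were uneven, however. In O-NR HSCs of cohort 1 the closest pairs gave 1.96 and 3.84, and all other pairs gave 53.06 to 71.75. In O-NR-RC HSCs the closest pair gave 4.02, and the others 73.19 and 101.53. The tests with cohort 1 counted each library as a replicate. Whether the close libraries are independent was not tested.

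Groups came from the titles. Whether each library is 1 mouse is not given in the sources used here, so p-values measure the spread between libraries. Counts were tested with edgeR 4.0.16 (TMM scaling, quasi-likelihood F test, R 4.3.3) on genes above 3 CPM in as many libraries as the smallest group (4 in cohort 2, 2 in cohort 1, 6 for both cohorts). The 6 cell type comparisons came from 1 fit over the 24 libraries of cohort 2 and were called at a Benjamini-Hochberg adjusted p below 0.05. NR was tested within each cell type, and there and in cohort 1 the study's unadjusted p below 0.01 was used. In all 17 comparisons were fitted. DESeq2 1.42.0, other scalings, no filter, replicate blocks and leaving out each library were alternatives. The tests were tried on simulated data. Ratios had 0.5 reads added to each count. Exon lengths and positions are from GENCODE M21 (mm10), in which 54510 symbols were found. The receptor signal is the reads on olfactory and vomeronasal receptor genes per kb of exon. Figures were drawn with matplotlib 3.10.9 and exact tests run with scipy 1.17.1.

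Named genes were the 9 members, up to 3 genes per direction and pathway list with the smallest p in each O-WT cell type comparison, up to 2 in the NR and cohort 1 comparisons, and the 3 genes with the highest correlation (prior count 2) to each member. The members and lists were chosen with earlier results of these data known. Counting error is the only error that read totals speak to.

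Same-numbered libraries of O-WT and O-NR mice did not as a rule deviate together. In HSCs the correlations of deviations ran from -0.27 to 0.59, with replicates 1 and 2 at 0.26 and 0.59. The highest was 0.27 in CLPs and 0.22 in GMPs. Most same-numbered libraries of different cell types did not deviate together either (from -0.48 to 0.36 in O-WT mice). The exception among cell types was HSC and CLP in O-WT, where all 4 same-numbered pairs correlated above 0.1 (0.35, 0.12, 0.36 and 0.25). Same-numbered HSC and GMP libraries of O-WT mice gave -0.01, -0.48, -0.03 and -0.26. This check of the counts cannot tell whether the numbers pair the libraries. The replicate number was used as a block as an alternative throughout, and it changed no call of a named gene between HSCs and CLPs of O-WT mice.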

Additional observations from a re-analysis of the deposited data

Results flagged for a closer look

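Of 63 sets of 4 libraries (9 members in 7 groups), 3 held a library whose gap to its nearest neighbour took a larger part of the whole range than Dixon's 95% critical value for 4 samples. Chance alone flags about 1 in 20 such sets. Epas1 was low in HSC O-NR replicate 4 of cohort 2, at 17.9 CPM. Arnt was high in HSC O-NR replicate 1 of cohort 2, at 63.7 CPM, where the other 3 libraries lay within 60.7-61.1 CPM. Vegfa was high in HSC O-WT replicate 4 of cohort 2, at 18.0 CPM.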

How the results depend on the processing

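Counts of called members stayed within 1.5 times the count given for each cell type comparison under the alternatives tried, except that HSC against CLP in O-WT gave 4 without a filter on low counts and HSC against GMP in O-WT gave 8 with the receptor signal as a covariate, an alternative chosen after seeing the data. A pair of differences that were not called changed sign and became called, Egln2 between HSCs and GMPs in O-WT (0.46 with the receptor covariate) and Hif1an between CLPs and GMPs in O-WT (0.30 under upper quartile scaling). The cause was not tested. Scaling moved the median log2 fold change of all genes between HSCs and GMPs in O-WT from 0.42 with TMM to 0.12 with DESeq2's size factors, and between CLPs and GMPs from 0.46 with TMM to 0.89 with the upper quartile, so that calls of Arnt, Hif1an and Egln1 changed with it. In the same comparisons Epas1, Egln3 and Vegfa kept their direction under every setting.

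For NR, withdrawal and their differences the count of called members was 0 under all alternatives except O-NR against O-WT in CLPs, where leaving out 1 library gave 0 to 1 (1 without CLP O-NR replicate 3). The log2 ratio of Epas1 to Hif1a reads between O-WT groups ran from 1.13 to 1.57 (HSC and CLP), 2.90 to 3.29 (HSC and GMP) and 1.54 to 1.99 (CLP and GMP) with 1 library left out, which raises the smallest possible exact p to 0.0571, and from -0.26 to 0.13 between O-NR and O-WT GMPs. Leaving 1 of the 2 O-WT libraries of cohort 1 out assumes that the lone library varies like the other groups.

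When a replicate block was added to the fit, the pairing changed the call of 1 member in the cell type comparisons, Egln2 between CLPs and GMPs in O-NR (-0.57, adjusted p = 0.0416), and of no member elsewhere. Among same-numbered HSC libraries of O-WT and O-NR mice the correlation of deviations ran from -0.27 to 0.59.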
